A study of Mus with 21 samples.

Results

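The measurements described here are the *Nipbl* by *Wapl* genotype interaction in the embryonic mouse brain, that is, the departure of double heterozygotes from the sum of the changes seen in each single heterozygote. All 21 of the 21 libraries enter it, and it was computed for every gene, with 30552 of the 55335 genes of the table having enough counts to be tested. Each library was made from polyadenylated RNA of a single whole brain, taken from a female embryo at E17.5 (embryonic age in days). There were 5 *WT* embryos (Wapl +/+; Nipbl +/+), 7 that carried the *Wapl* deletion alone (Wapl delta/+ or Wapl +/delta, called *Wapl delta/+* here), 3 that carried the *Nipbl* deletion alone (Nipbl +/delta, called *Nipbl+/-*), and 6 double heterozygotes with both deletions. The comparison asks whether lowering *Wapl* dosage shifts expression differently when *Nipbl* is also reduced. For each gene the interaction is the log2 level in double heterozygotes, minus that in *Nipbl+/-*, minus that in *Wapl delta/+*, plus that in *WT*. A value of 0 means that the single effects add up on the log2 scale, a positive value means that double heterozygotes lay above that sum, and a negative value that they lay below it.

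Cohesin is a ring-shaped protein complex that holds sister chromatids together and extrudes chromatin loops. NIPBL, with its partner MAU2, loads cohesin on DNA and drives extrusion, whereas WAPL, with PDS5 proteins, opens the ring and releases it, so the pair act in opposite directions on how long and how much cohesin stays on chromatin. Heterozygous loss of *NIPBL* in humans is the most common known cause of Cornelia de Lange syndrome, a developmental disorder with growth and neurological defects.

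The *Wapl* deletion was made with *E2a-Cre*, removes the promoter and the first exons, and was backcrossed to C57BL/6J from 129 embryonic stem cells. The *Nipbl* deletion arose in the germ line of sires with a *Stra8-icre* transgene, and *Nipbl+/-* pups die before weaning. The study set up 2 kinds of cross, and the labels tie the libraries neither to a cross nor to litters. Libraries held between 25682566 and 35818767 counts on genes (median 31830396). All 3 *Nipbl+/-* libraries and 9 others had between 0 and 6 counts of the mitochondrial gene *mt-Nd3*, and the remaining 9 libraries (*WT* replicates 4 and 5, *Wapl delta/+* replicates 3 to 7, double heterozygotes 5 and 6) had between 52 and 106. The interaction can therefore be estimated among the low *mt-Nd3* libraries but not among the high ones, which include no *Nipbl+/-* brain. In whole-brain RNA, fewer cells of a type and less RNA per cell cannot be told apart.

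*Nipbl* and *Wapl* themselves were measured first. *Nipbl* (chromosome 15, 8289824 to 8465315 on GRCm38) had normalized counts of 2402, 2147, 2019, 2041 and 2221 in *WT* brains, 1136, 1104 and 1287 in *Nipbl+/-* brains, between 1956 and 2243 (median 2138) in *Wapl delta/+* brains and between 1135 and 1244 (median 1186) in double heterozygotes. Every library with the *Nipbl* deletion lay below every library without it, and the 2 groups with the deletion overlapped. The level was 54.3% of the *WT* mean in *Nipbl+/-* brains and 54.8% in double heterozygotes, and the interaction was 0.045 (SE 0.0723, 95% interval -0.10 to 0.19). Its sign was negative without *WT* replicate 1 or without *Nipbl+/-* replicate 1 or 2.

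*Wapl* (chromosome 14, 34672379 to 34747983) had normalized counts of 1606, 1494, 1477, 1389 and 1495 in *WT* brains, 1386, 1320 and 1470 in *Nipbl+/-* brains, between 590.4 and 755 (median 721) in *Wapl delta/+* brains and between 704 and 774 (median 739) in double heterozygotes. The groups with the *Wapl* deletion overlapped each other and did not overlap the rest. Double heterozygotes held 49.35% of the *WT* mean, against 46.7% in *Wapl delta/+* and 93.3% in *Nipbl+/-* brains. The interaction of *Wapl* was 0.18 (SE 0.0844, 95% interval 0.006 to 0.35), with an edgeR adjusted *P* of 0.375. It was 0.12 without *Nipbl+/-* replicate 2 and 0.27 among the low *mt-Nd3* libraries. The interaction can be read in the plot of *Nipbl* and *Wapl* counts as the distance of the double heterozygotes from the dashed line.

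**Figure D1:**
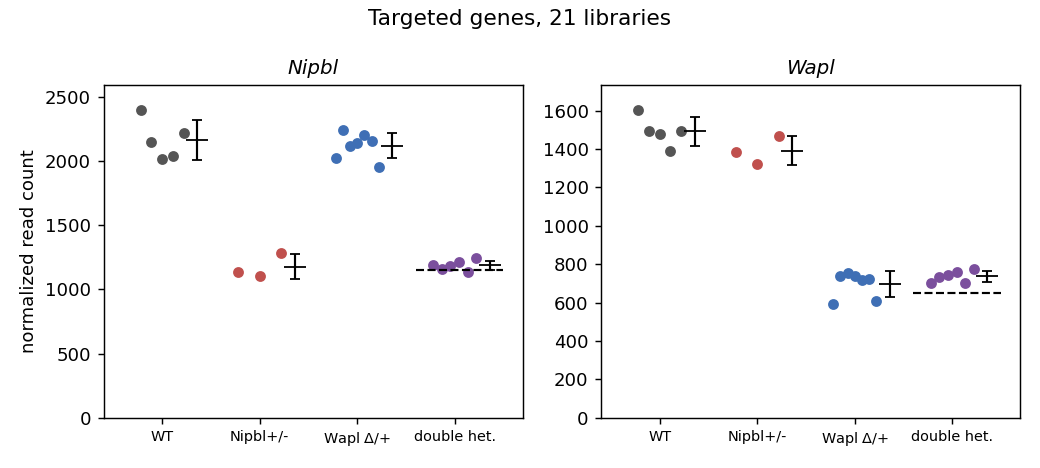
Normalized read counts of *Nipbl* and *Wapl* (vertical axes, from 0) in each of the 21 libraries by genotype, with points for libraries and black marks for the group mean and SD. The dashed line is the level at which the single effects add up on the log2 scale, 1150 for *Nipbl* and 649.9 for *Wapl*, against double-heterozygote means of 1187 and 736.

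Over all genes, no departure from additivity passed the adjusted threshold, and more genes than an equal spread of *P* values gives had small unadjusted ones. With edgeR's quasi-likelihood test on all 21 libraries, 0 of 30552 genes (0%) were called at an adjusted *P* below 0.10, the smallest adjusted *P* being 0.237. An unadjusted *P* below 0.05 was found for 3887 genes (12.7%), against 1527.6 expected if no gene differed. Of these, 2126 (6.96%) were positive and 1761 (5.76%) negative. Among the 17303 genes averaging 1 CPM (counts scaled to library size) or more, 3149 had such a *P* value, and 101 of all genes were below 0.001. Genes share the same 21 libraries and are not independent. The count of small *P* values can therefore stray from 1527.6 even where no gene differed. In the same fit the *Nipbl* term, which compares *Nipbl+/-* with *WT* brains, called 1464 of the 30552 genes. The *Wapl* term, which compares *Wapl delta/+* with *WT* brains, called 8. For both contrasts the study called more genes at the same threshold, with another test (DESeq2).

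The count of calls depended on the test and on single libraries. DESeq2, which the study used for its own comparisons, called 793 genes (8.59% of the 9228 for which it gave an adjusted *P*), 469 positive (5.08%) and 324 negative (3.51%). Of these, 792 had an unadjusted *P* below 0.05 in edgeR and all 793 had the same sign there. With limma's voom the count was 0, with 3952 genes at an unadjusted *P* below 0.05. Without *Wapl delta/+* replicate 2, edgeR called 252 genes, 149 of them among those of DESeq2, and without double heterozygote 6 it called 307, of which 191 were among them. Leaving out any other library gave 0. Among the 12 libraries with low *mt-Nd3*, edgeR called 2 genes, *Scai* and *Mmp9*, both also called by DESeq2. DESeq2 gave no adjusted *P* to 21324 genes, nearly all set aside by its filter on mean count. Its adjustment therefore covered fewer genes than that of edgeR, and a missing adjusted *P* is not a test result. When edgeR was restricted to the 17303 genes averaging 1 CPM or more, it called 0, with a smallest adjusted *P* of 0.175. The cause of the difference in calls was not tested.

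**Figure D2:**
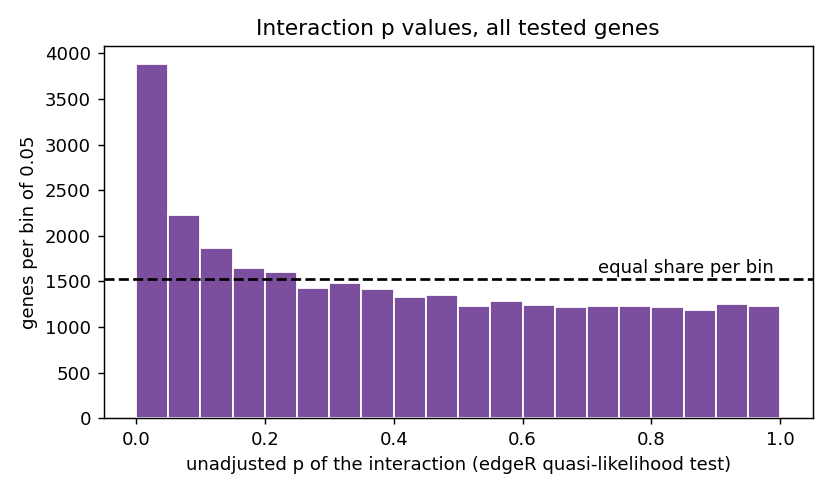
Histogram of the unadjusted *P* values of the interaction for the 30552 tested genes, in bins of 0.05. The first bin holds 3887 genes, above the dashed line at 1527.6 that an equal share per bin would give.

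Most departures were small and their precision allows bounds. For these 17303 genes the median absolute interaction was 0.101 on the log2 scale and the median standard error 0.0911. The 95% interval lay within 1 log2 unit of 0 for 16865 of 17303 genes (97.5%) and within 0.5 for 13499 (78.0%). The point estimate exceeded 1 in size for 60 genes.

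The genes described next are the 12 with the smallest *P* value in each direction among genes of at least 1 CPM. None passed edgeR's adjusted threshold, each having an adjusted *P* of 0.237, whereas 16 of the 24 were called by DESeq2 and the other 8 received no adjusted *P* from it. The same *WT* libraries enter both single differences and, with the opposite sign, the interaction. In all 12 genes with a positive interaction both single heterozygotes had means below *WT*, and in all 12 with a negative interaction both had means above *WT*.

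*Mbnl1*, which encodes an RNA-binding regulator of alternative splicing (chromosome 3, 60472559 to 60629750), had the smallest *P* value of the 12. Its normalized counts were 856, 809.6, 765, 826 and 787 in *WT* brains, 662, 691 and 639 in *Nipbl+/-* brains, between 599.5 and 809 (median 729) in *Wapl delta/+* brains and between 773 and 823 (median 802) in double heterozygotes. Double heterozygotes fell within the range of *WT* and above all *Nipbl+/-* brains. If the single effects added up, a level of 599.3 would follow, and the double-heterozygote mean was 802. The interaction was 0.42 (SE 0.0815, 95% interval 0.25 to 0.59), with an unadjusted edgeR *P* of 2.29e-05 and a DESeq2 adjusted *P* of 0.00723. *Wapl delta/+* replicate 1 stood apart at 599.5, and without it or any other library the estimate stayed between 0.36 and 0.45.

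*Foxp1*, a forkhead transcription factor of cortical and striatal neurons (chromosome 6, 98925342 to 99522746), had counts of 3710, 3934, 3876, 3908 and 3635 in *WT* brains, 3275, 3348 and 3194 in *Nipbl+/-* brains, between 3181 and 3545 (median 3350) in *Wapl delta/+* brains and between 3261 and 3578 (median 3444) in double heterozygotes. The 3 mutant genotypes overlapped one another and all lay below the *WT* range. The mean of double heterozygotes was 3420.5, against 2873 for the sum of single effects, and the interaction was 0.25 (SE 0.0533, 95% interval 0.14 to 0.36), with a DESeq2 adjusted *P* of 0.00723. It was 0.10 once a trend on gene length, described further on, was removed from each library.

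*Homer2* (chromosome 7, 81600481 to 81706925) encodes a scaffold of the postsynaptic density that binds group I metabotropic glutamate receptors. Its counts were 1656, 1528, 1309, 1385 and 1500 in *WT* brains, 905, 1138 and 1050 in *Nipbl+/-* brains, between 1029 and 1293 (median 1125) in *Wapl delta/+* brains and between 1022 and 1551 (median 1138) in double heterozygotes. Double heterozygotes spread from the range of the single heterozygotes to that of *WT*, with replicates 3 and 5 at 1449 and 1551. The interaction was 0.63 (SE 0.139, 95% interval 0.34 to 0.91), and DESeq2 gave an adjusted *P* of 0.0263. *Ncam2*, a neural cell adhesion molecule (chromosome 16, 81200697 to 81624290), had an interaction of 0.71 (SE 0.16, 95% interval 0.38 to 1.037). Its counts were 1360, 1184, 1017, 1057 and 1190 in *WT* brains, 645, 822 and 779.9 in *Nipbl+/-* brains, between 612 and 1042 (median 944) in *Wapl delta/+* brains and between 813 and 1125 (median 917) in double heterozygotes. The double-heterozygote range overlapped those of the other groups, and its mean of 936 lay above the 573 given by the sum of single effects.

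The other genes of this direction included further adhesion and signalling genes. *Cdh12*, a cadherin, had an interaction of 0.54, or 0.35 after removal of the length trend, and *Dok6*, a docking protein of receptor tyrosine kinases, 0.45. *Ndst4*, which modifies heparan sulfate chains, had 0.54. *Rab11fip2*, an effector of RAB11 in recycling endosomes, had 0.26, and *Fpgt*, an enzyme of fucose salvage, 0.36. *Adra1a*, the alpha-1A adrenergic receptor, had the largest estimate of the 12, 1.21 (SE 0.297, 95% interval 0.60 to 1.83). Its counts were low, 83.4, 80.03, 60.9, 82.5 and 88.98 in *WT* brains, 28.8, 32.1 and 49.8 in *Nipbl+/-* brains, between 38.95 and 74.7 (median 51.8) in *Wapl delta/+* brains and between 39.5 and 89.7 (median 56.3) in double heterozygotes, and double heterozygote 5, at 89.7, exceeded every *WT* library. *mt-Tp*, a mitochondrial tRNA gene, had 0.61 and the gene model *Gm37676* 0.49. Whether the counting used strand is not stated, so reads of such genes cannot be told apart from those of genes on the opposite strand.

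*Pygo2*, a co-activator of Wnt target genes (chromosome 3, 89430114 to 89435131), was among the genes with a negative interaction. Its counts were 2135, 2045, 2121, 2118 and 2159 in *WT* brains, 2354, 2326 and 2296 in *Nipbl+/-* brains, between 2219 and 2404 (median 2284) in *Wapl delta/+* brains and between 2029 and 2346 (median 2102) in double heterozygotes. All single heterozygotes lay above all *WT* libraries, and 5 of the 6 double heterozygotes lay below all *Nipbl+/-* libraries. The sum of the single effects corresponds to 2530 and the double-heterozygote mean was 2141, an interaction of -0.24 (SE 0.0535, 95% interval -0.35 to -0.13), with a DESeq2 adjusted *P* of 0.0166. *Acaa1a*, the peroxisomal thiolase of fatty acid oxidation (chromosome 9, 119341028 to 119350296), had counts of 2335, 2352, 2394, 2392 and 2363 in *WT* brains, 2775, 2583 and 2694 in *Nipbl+/-* brains, between 2435 and 2642 (median 2512) in *Wapl delta/+* brains and between 2358 and 2549 (median 2492) in double heterozygotes. Both single heterozygotes lay above every *WT* library, and 5 of the 6 double heterozygotes did too. The interaction was -0.22 (SE 0.0486, 95% interval -0.32 to -0.12).

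*Mmp9*, a secreted metalloproteinase that degrades extracellular matrix (chromosome 2, 164940326 to 164955850), had counts of 411, 469.9, 501, 401 and 477 in *WT* brains, 787, 676 and 714 in *Nipbl+/-* brains, between 497 and 755 (median 702) in *Wapl delta/+* brains and between 584 and 744 (median 651) in double heterozygotes. All double heterozygotes lay above *WT* and overlapped the *Nipbl+/-* brains, and the interaction was -0.64 (SE 0.147, 95% interval -0.94 to -0.34). *Wapl delta/+* replicates 3, 6 and 7 had 497 to 543 counts, and the others, which include the high *mt-Nd3* replicates 4 and 5, had 702 to 755. Among the low *mt-Nd3* libraries alone the value was -0.78, and there it was called by edgeR.

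The remaining negative genes included several of metabolism and ion transport. *Pex6*, an ATPase of peroxisome assembly, had an interaction of -0.22. *Csad*, the decarboxylase of taurine synthesis, had -0.27, and *Esrra*, a nuclear receptor that controls mitochondrial genes, -0.23. *Hvcn1*, a proton channel, had -0.34 and *Cacnb1*, the beta 1 subunit of voltage-gated calcium channels, -0.22. *Tmem198*, a transmembrane protein, had -0.33. The gene models *Gm20479* and *Gm26827* had -0.36 and -0.68. *Gm48700* had the largest negative estimate, -1.46 (SE 0.318, 95% interval -2.11 to -0.80), on few counts: 12.6, 21.6, 16.7, 25.2 and 15 in *WT* brains, 52.7, 35.96 and 39.2 in *Nipbl+/-* brains, between 28 and 46.7 (median 37.4) in *Wapl delta/+* brains and between 19.2 and 48.2 (median 31.1) in double heterozygotes. In the plot of 8 of the 24 genes, double heterozygotes sit above the dashed line for the genes of the upper row and below it for those of the lower row.

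**Figure D3:**
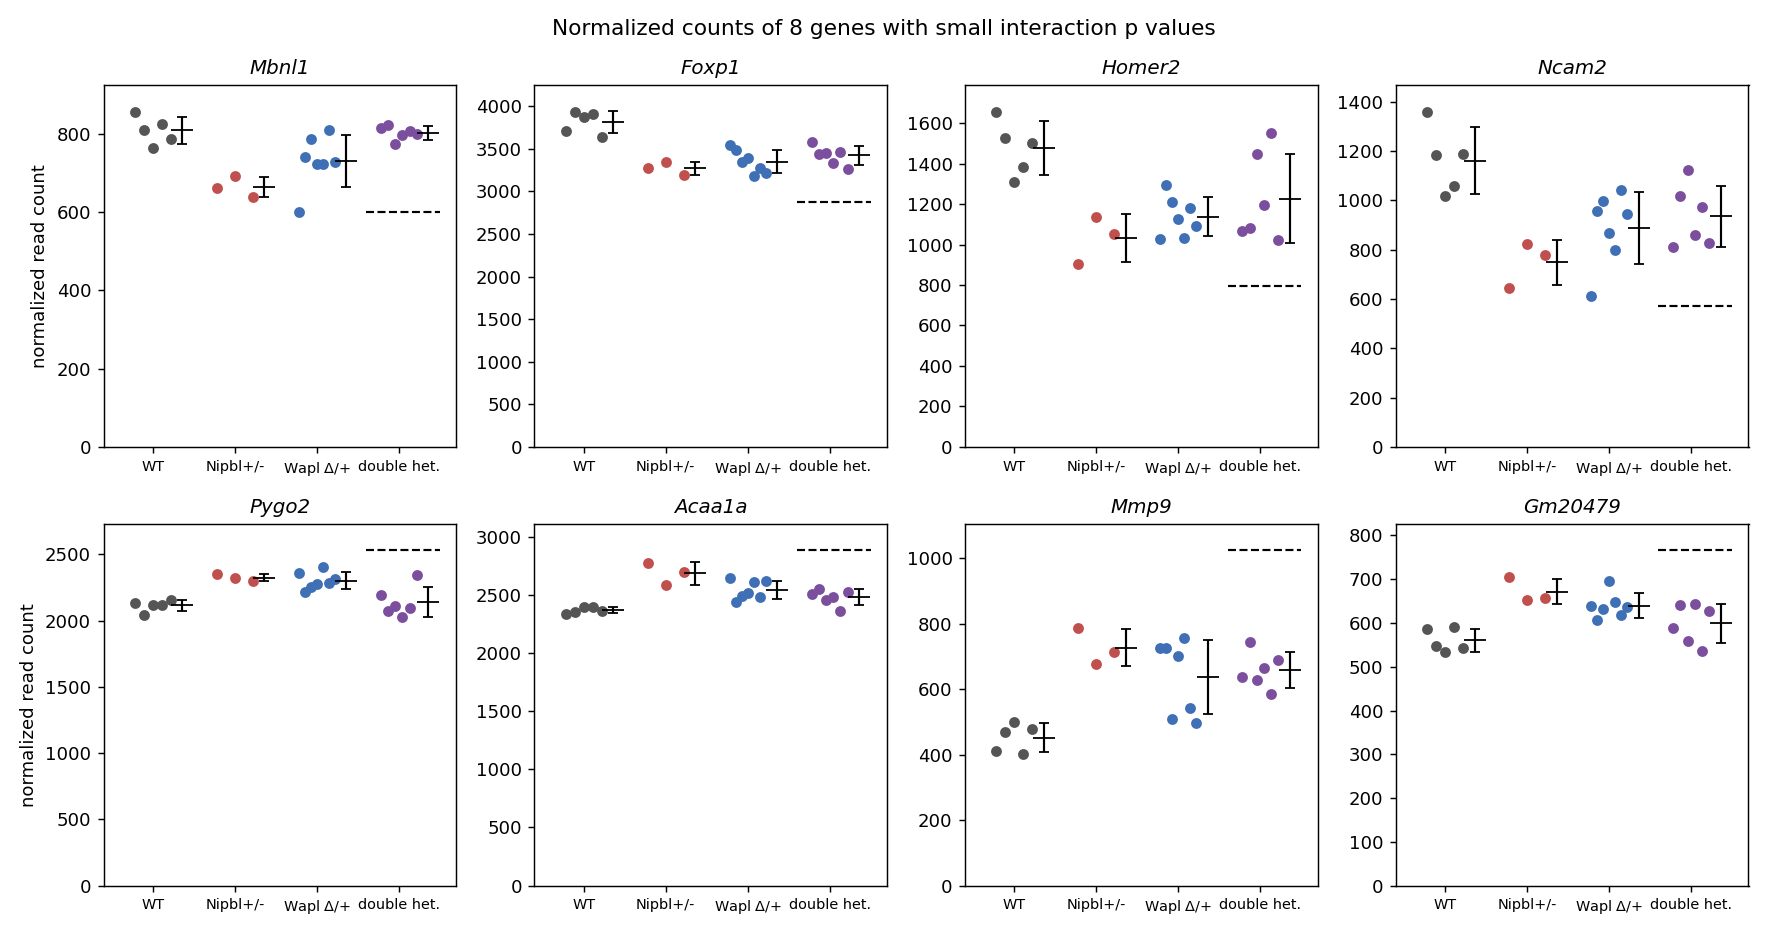
Normalized read counts (vertical axes, from 0) of *Mbnl1*, *Foxp1*, *Homer2* and *Ncam2*, with positive interactions, and *Pygo2*, *Acaa1a*, *Mmp9* and *Gm20479*, with negative ones, in each of the 21 libraries. Black marks are group means with SD, and the dashed line is the level at which the single effects add up, such as 599.3 for *Mbnl1* and 1023 for *Mmp9*.

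Gene lists were then described by the number of members with an unadjusted edgeR *P* below 0.05 in each direction and by the median interaction, to be read beside 6.96% positive, 5.76% negative and a median of 0.00348 over all tested genes. Among genes of at least 1 CPM, to which most list members belong, the shares were 9.45% positive and 8.75% negative, together 18.2%, with a median of -0.00799. The lists of homeobox genes (15%), mitochondrially encoded proteins (15.4%) and radial glia (18.8%) were below or near that share. So were those of gamma protocadherins (13.6%), the oligodendrocyte lineage (14.3%), the cerebellar lineage (18.8%), collagens (13.6%) and imprinted genes (15.4%). Lower still were hypothalamic neuropeptides (11.8%), immediate early genes (10%), brain endothelium and choroid plexus (7.14% each) and meningeal fibroblasts (6.25%). Alpha protocadherins and the *Hox*, erythroid and cytoplasmic ribosomal lists had 0%. With both directions together, microglia (21.4%) and the cohesin ring list (22.2%) lay little above 18.2%. So did the lists of the cell cycle (23.1%), synapse organization (23.5%) and regulators of Cornelia de Lange-like syndromes (25%). In what follows a member is counted as positive or negative where its unadjusted *P* was below 0.05. No member of any list was called by edgeR's adjusted *P*. Among the 6 genes of cohesin loading and release, 2 were positive and none negative, with a median of 0.133 that was 0.079 without *Nipbl+/-* replicate 1. *Pds5b*, a partner of WAPL in cohesin release (chromosome 5, 150673713 to 150810669), had counts of 3799, 3707, 3320, 3275 and 3482 in *WT* brains, 2451, 2939 and 2895 in *Nipbl+/-* brains, between 2786 and 3632 (median 3400) in *Wapl delta/+* brains and between 2952 and 3367 (median 3271) in double heterozygotes. All 3 *Nipbl+/-* brains lay below every *WT* brain and all double heterozygotes lay between 2952 and 3367, with an interaction of 0.28 (SE 0.09, 95% interval 0.10 to 0.47), with a DESeq2 adjusted *P* of 0.0741. Without *Nipbl+/-* replicate 1 the estimate was 0.18. The other member was *Wapl* itself.

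Of the 9 genes of the cohesin ring, its acetylation and *Ctcf*, 2 were positive and none negative, with a median of 0.0306 that was -0.0245 without *Nipbl+/-* replicate 2. These were *Stag1* (0.17) and *Stag2* (0.20), alternative subunits of the ring. The estimate of *Stag1* was 0.10 without *Nipbl+/-* replicate 1 and 0.052 after removal of the trend on gene length, and that of *Stag2* was 0.13 without *WT* replicate 1. *Stag1* counts were 2314, 2217, 2055, 2041 and 2068 in *WT* brains, 2178, 2303 and 2448 in *Nipbl+/-* brains, between 1742 and 2082 (median 1988) in *Wapl delta/+* brains and between 2329 and 2513 (median 2352) in double heterozygotes. All double heterozygotes lay above all *WT* brains. The *Wapl delta/+* brains lay below every *WT* brain except for replicate 2, at 2082. The core subunits had interactions near 0, with 0.033 for *Rad21*, -0.019 for *Smc1a* and -0.0049 for *Smc3*, and *Ctcf* had 0.011. Of the 12 regulators whose mutation gives syndromes like Cornelia de Lange syndrome, 3 were positive and none negative. They included *Kmt2a* (0.45), a histone H3 lysine 4 methyltransferase, and *Taf1* (0.30), a subunit of the general factor TFIID.

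Protocadherins are cadherin-like proteins of neuronal surfaces, and the clustered *Pcdha*, *Pcdhb* and *Pcdhg* genes are switched on from promoters that cohesin and CTCF bring to distant enhancers. In the beta cluster, 8 of 22 genes had a positive interaction at an unadjusted *P* below 0.05 and none a negative one, with a median of 0.165. *Pcdhb17* had counts of 761, 629, 672, 684 and 642 in *WT* brains, 301, 328 and 314 in *Nipbl+/-* brains, between 683 and 836 (median 778) in *Wapl delta/+* brains and between 398 and 460.5 (median 440.0) in double heterozygotes. Double heterozygotes lay above all *Nipbl+/-* brains and below all *WT* brains, without overlap with either, and *Wapl delta/+* brains reached above *WT*. The interaction was 0.29 (SE 0.0904, 95% interval 0.11 to 0.48). *Pcdhb19* had an interaction of 0.43 (SE 0.128, 95% interval 0.17 to 0.69). Its counts were 338, 282, 286, 315 and 319 in *WT* brains, 135, 168 and 146 in *Nipbl+/-* brains, between 249.5 and 357 (median 302) in *Wapl delta/+* brains and between 178 and 213 (median 198) in double heterozygotes, again with double heterozygotes between the *Nipbl+/-* and *WT* brains and apart from both. The median of the list ranged from 0.113 to 0.208 when single libraries were left out, and DESeq2 gave no adjusted *P* for any of its members. The summed level of the 22 genes ranged from 161 to 179 CPM in *WT*, from 97.0 to 104 in *Nipbl+/-*, from 167 to 190.3 in *Wapl delta/+* and from 114 to 134 in double heterozygotes.

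In the alpha cluster all 13 genes had positive estimates, none past an unadjusted *P* of 0.05, with a median of 0.109 that was 0.026 without *Nipbl+/-* replicate 3 and 0.0276 after removal of the length trend. In the gamma cluster all 22 had estimates below 0 (median -0.123), 3 of them past it, among them *Pcdhga4* and *Pcdhgc3*, each with -0.13. Genes within the alpha and within the gamma cluster share their last exons and had nearly equal counts in each library, and the treatment of reads on several genes is not stated, so their values are not separate measurements. Double heterozygote 3 had 13300 counts of *Pcdhga4*, below the other 20 libraries, and without it the median of the gamma list was -0.087. Among 11 protocadherins outside the clusters, 8 were positive and 2 negative, with a median of 0.275, and DESeq2 called 6 of the 9 with an adjusted *P*, all positive. *Pcdh7* (chromosome 5, 57716145 to 58133236) had counts of 3044, 2869, 2596, 2604 and 2688 in *WT* brains, 1580, 2026 and 1753 in *Nipbl+/-* brains, between 1932 and 2818 (median 2701) in *Wapl delta/+* brains and between 1982 and 2562 (median 2394) in double heterozygotes. Its interaction was 0.50 (SE 0.127, 95% interval 0.24 to 0.76), with a DESeq2 adjusted *P* of 0.0525. *Pcdh10* had 0.25 and *Pcdh17* 0.49. The negative members were *Pcdh8* (-0.24) and *Pcdh1* (-0.18).

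Among neurotransmitter receptors, 8 of 24 glutamate receptor genes were positive and 2 negative (median 0.125), and 9 of 16 GABA-A receptor subunits were positive and none negative (median 0.227). *Grm5*, a metabotropic glutamate receptor, had counts of 3917, 3509, 3181, 3221 and 3436 in *WT* brains, 1808, 2501 and 2113 in *Nipbl+/-* brains, between 2092 and 3384 (median 3066) in *Wapl delta/+* brains and between 2195 and 3038 (median 2464) in double heterozygotes, and an interaction of 0.53 (SE 0.16, 95% interval 0.20 to 0.86). All *Nipbl+/-* brains lay below every *WT* brain, and double heterozygotes lay between 2195 and 3038, below every *WT* brain too. The median of the glutamate receptor list was 0.0592 without *Nipbl+/-* replicate 3 and 0.038 after removal of the length trend, and that of the GABA-A list 0.133 and 0.197, respectively. *Grik2*, a kainate receptor subunit, had 0.26, which was 0.10 after that removal, and the NMDA receptor subunits *Grin2b* and *Grin3a* had 0.43 and 0.42. The negative members were *Grik5* (-0.15) and *Grin3b* (-0.38). Of the GABA-A subunits, *Gabrb1* had 0.36, which was 0.23 after it, and *Gabrb2* had 0.98. The *Gabrb2* counts were 1261, 1134, 899, 875 and 996 in *WT* brains, 278, 511 and 603 in *Nipbl+/-* brains, between 283 and 1065 (median 760.3) in *Wapl delta/+* brains and between 356 and 917 (median 689) in double heterozygotes, the lowest in each mutant group being replicate 1. DESeq2 called 6 of 18 glutamate receptor genes and 1 of 9 GABA-A genes with an adjusted *P*, all positive.

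Lists of synapse organizers and channels held more positive than negative members. Of 34 genes of synapse organization, 8 were positive and none negative (median 0.0992), among them the presynaptic adhesion gene *Nrxn3* (0.41, SE 0.12, 95% interval 0.16 to 0.66), and DESeq2 called 7 of the 30 with an adjusted *P*, all positive. *Nrxn3* counts were 4688, 4339, 3994, 4124 and 4435 in *WT* brains, 3223, 3712 and 4016 in *Nipbl+/-* brains, between 3023 and 4111 (median 3659) in *Wapl delta/+* brains and between 3264 and 4603 (median 4072) in double heterozygotes. Double heterozygotes 2 to 5 lay within the *WT* range, and replicates 1 and 6 below it. Of 40 voltage-gated channel genes, 13 were positive and 1 negative (median 0.114). They included *Kcna1*, a potassium channel (1.13, SE 0.315, 95% interval 0.48 to 1.78), and *Cacna2d1*, a calcium channel subunit (0.36, SE 0.103, 95% interval 0.15 to 0.57). The negative one was *Cacna1h* (-0.24). Without *Nipbl+/-* replicate 1 the medians of the synapse and channel lists were 0.0266 and 0.0359, and after removal of the length trend they were 0.0278 and 0.0596. The same removal gave 0.20 for *Nrxn3* and 0.23 for *Cacna2d1*.

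Axon guidance genes went both ways, with 12 positive and 17 negative of 65 and a median of -0.0811 that was -0.123 without *Nipbl+/-* replicate 3 and -0.0362 among the low *mt-Nd3* libraries. The positive ones included the guidance receptors *Robo2* (0.27, SE 0.0748, 95% interval 0.12 to 0.42), *Unc5c* (0.31) and *Plxna4* (0.40). The negative ones included the netrin *Ntn1* (-0.29), *Sema5b* (-0.37), the commissural receptor *Robo3* (-0.60) and the ephrins *Efna2* (-0.20) and *Efnb1* (-0.31). After removal of the length trend *Robo2* had 0.065 and *Unc5c* 0.19. Of the 52 genes with an adjusted *P*, DESeq2 called 5 with a positive interaction and 3 with a negative one.

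Most genes of dividing progenitors had negative estimates, a minority of them at an unadjusted *P* below 0.05. Of 26 genes of the cell cycle and mitosis, 25 had estimates below 0, 6 of them at an unadjusted *P* below 0.05 and none positive at that level (median -0.192). *Birc5*, the survivin subunit of the chromosomal passenger complex (chromosome 11, 117849237 to 117855743), had counts of 269, 272, 278, 267 and 285 in *WT* brains, 419.5, 289.6 and 342 in *Nipbl+/-* brains, between 287 and 397 (median 321) in *Wapl delta/+* brains and between 255 and 365 (median 327) in double heterozygotes. Every single heterozygote lay above every *WT* brain, whereas double heterozygotes reached from below the *WT* range to well above it. The interaction was -0.44 (SE 0.151, 95% interval -0.75 to -0.13). *Plk1*, a mitotic kinase, had -0.35 and *Cdk1* -0.32. Among 16 genes of radial glia and intermediate progenitors, 14 had estimates below 0 (median -0.181), 2 of them at that level, and *Hopx*, a marker of outer radial glia, was positive at it with 0.41 (SE 0.12, 95% interval 0.16 to 0.65), or 0.24 without *Nipbl+/-* replicate 1. Of 20 homeobox genes of progenitor domains, 19 had estimates below 0 (median -0.182) and 3 of them at that level, among them *Pax7* (-0.38, SE 0.118, 95% interval -0.63 to -0.14). Across the left-out libraries the medians of these 3 lists ranged from -0.335 to -0.139, from -0.298 to -0.122 and from -0.264 to -0.124, respectively. After removal of the length trend they were -0.157, -0.127 and -0.131. DESeq2 called 0 of the 15, 8 and 1 members for which it gave an adjusted *P*.

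Among glia, all 15 astrocyte genes had positive estimates, 5 of them at an unadjusted *P* below 0.05, with a median of 0.174 that ranged from 0.118 without *Nipbl+/-* replicate 3 to 0.263 without *Nipbl+/-* replicate 2. *Slc4a4*, a bicarbonate transporter (chromosome 5, 88793858 to 89239656), had counts of 2069, 1924, 1709, 1871 and 1925 in *WT* brains, 887, 1362 and 1062 in *Nipbl+/-* brains, between 1116 and 1839 (median 1628) in *Wapl delta/+* brains and between 1139 and 1657 (median 1306) in double heterozygotes, and an interaction of 0.61 (SE 0.183, 95% interval 0.23 to 0.98). The *Nipbl+/-* and double-heterozygote brains all lay below *WT*. The aquaporin *Aqp4* had 0.71, the intermediate filament gene *Gfap* 0.96 and the glutamate transporter *Slc1a2* 0.16, which was 0.097 after removal of the length trend. The summed level of the 15 genes was 1474 to 1568 CPM in *WT*, 1127 to 1378 in *Nipbl+/-*, 1260 to 1625 in *Wapl delta/+* and 1202 to 1438 in double heterozygotes. Of 14 microglial genes, 3 were positive and none negative (median 0.17), among them the purinergic receptor *P2ry12* (0.51) and *Gpr34* (0.70). Without *Nipbl+/-* replicate 3 the median was 0.0308 and *P2ry12* had 0.33. Of 14 genes of the oligodendrocyte lineage, 2 were positive, *Pdgfra* (0.36) and *Lhfpl3* (0.25), and the median was -0.00207. Without *Nipbl+/-* replicate 1, *Lhfpl3* had 0.16, and after removal of the length trend 0.12.

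Among 15 transcription factors of cortical layers, 3 were positive and 1 negative (median 0.00627), *Foxp1* and *Foxp2* (0.14) among the positive. The estimate of *Foxp2* was 0.092 without double heterozygote 1 and -0.0024 after removal of the trend on gene length. Of 16 genes of GABAergic interneurons, 1 was positive, *Prox1* (0.33), and 4 negative, among them *Lhx6* (-0.23), and of 16 cerebellar genes, 2 were positive, *Reln* (0.48, SE 0.124, 95% interval 0.23 to 0.74) and *Foxp2*, and 1 negative. Of 44 collagen genes, 2 were positive, *Col25a1* (0.33) among them, and 4 negative, among them *Col3a1* (-0.42), with a median of -0.145 that was -0.0896 without double heterozygote 5 and 0.113 among the low *mt-Nd3* libraries. There *Col3a1* had -0.18, and *Col25a1* had 0.17 without *Nipbl+/-* replicate 1. Meningeal fibroblast genes held 1 positive member of 16, *Cemip* (0.35), brain endothelium 1 of 14, *Flt1* (0.43), and the choroid plexus 1 of 14, *Prlr* (0.56), each with none negative. Pericytes and smooth muscle held 2 positive, *Tagln* (0.41) and *Abcc9* (0.32), and 1 negative of 10, *Abcc9* having 0.20 without *Nipbl+/-* replicate 1. Border-associated macrophages held 2 positive and 1 negative of 11, among them *Lyve1* (0.36) and *Stab1* (-0.25), and *Lyve1* had 0.19 without *Nipbl+/-* replicate 3.

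Of 26 imprinted genes, 2 were positive, the neighbours *Zim1* (0.44, SE 0.117, 95% interval 0.20 to 0.68) and *Peg3* (0.32, SE 0.105, 95% interval 0.10 to 0.53), and 2 negative, with a median of -0.027 that was -0.0821 without *Wapl delta/+* replicate 2. Both positive genes were called by DESeq2. Of the 13 proteins encoded by mitochondrial DNA all had positive estimates (median 0.175), *mt-Nd2* (0.18) and *mt-Nd5* (0.18) being the 2 at an unadjusted *P* below 0.05. That median was 0.0629 among the low *mt-Nd3* libraries and 0.103 without *Nipbl+/-* replicate 3, and without the latter *mt-Nd2* had 0.10. The list includes *mt-Nd3* itself. Its estimate over all libraries is not separate from the split by *mt-Nd3* level, in which no *Nipbl+/-* brain is high. Cytoplasmic ribosomal proteins gave 0 of 82 at that level and a median of -0.0305, and DESeq2 called 0 of the 77 with an adjusted *P*. Immediate early genes gave 2 negative of 20, *Nr4a1* (-0.22) and *Jun* (-0.18). *Hox* genes and erythroid genes gave 0 of 24 and 0 of 11. Of 17 hypothalamic neuropeptide genes, 2 were positive, *Pomc* and *Avp* (0.55), the latter having 0.36 without *Nipbl+/-* replicate 3.

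**Figure D4:**
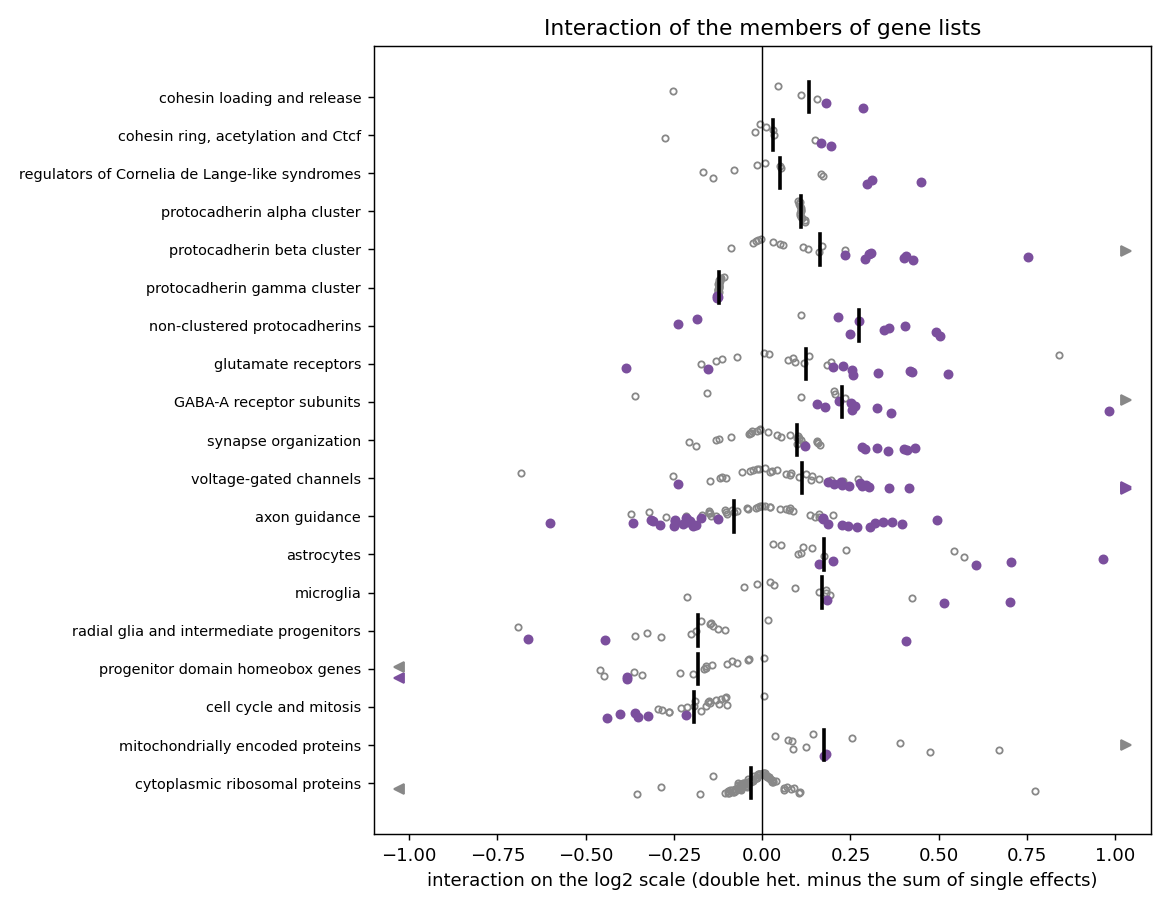
Interaction on the log2 scale (horizontal axis) of each member of 19 gene lists, with filled points for an unadjusted edgeR *P* below 0.05, open points for the other members, black bars for list medians and arrows for 10 values beyond 1 in size. The bars lie to the right of 0 for synaptic, receptor, channel and astrocyte lists and to the left for cell cycle, progenitor and homeobox lists.

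The largest fitted interaction of a gene with at least 1 CPM was that of *Gh*, a pituitary gene. Of 10 pituitary genes tested, 6 were positive and 1 negative at an unadjusted *P* below 0.05, with a median of 2.33, which was 0.586 without *WT* replicate 2 (*Gh* 2.47, *Pomc* 0.67). *Gh*, growth hormone, had a normalized count of 2110 in *WT* replicate 2 and between 0 and 1.96 in the other *WT* brains. It stood at 819.8 and 201 in double heterozygotes 6 and 5, at 22.3 in *Nipbl+/-* replicate 3, at 17.2 in *Wapl delta/+* replicate 1, and at 0.958 or 0 in all others. *Pomc*, the precursor of pituitary and hypothalamic peptides, followed with 527 counts in *WT* replicate 2 and 315 and 101 in double heterozygotes 6 and 5. Summed over the list, the level was 6.81 to 95.5 CPM in *WT* and 7.52 to 48.0 in double heterozygotes, against 8.68 to 10.1 in *Nipbl+/-* and 7.25 to 11.9 in *Wapl delta/+* brains. The part of attached pituitary tissue in these values was not tested.

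The median interaction went from negative in short genes to positive in long genes. Over 15569 genes with at least 1 CPM and an annotated length, the median interaction was -0.0548 for 4182 genes under 10 kb, -0.0243 from 10 to 30 kb, 0.0245 from 30 to 100 kb, 0.0737 from 100 to 300 kb and 0.138 for 531 genes over 300 kb. At an unadjusted edgeR *P* below 0.05, 198 of the genes over 300 kb were positive (37.3%) and 10 negative (1.88%), whereas of the genes under 10 kb 3.32% were positive and 11.1% negative. Of 352 genes over 300 kb with an adjusted *P*, DESeq2 called 93, all positive, whereas of 1860 under 10 kb it called 13 with a positive and 88 with a negative interaction, to be read beside 5.08% and 3.51% over all 9228. Across these 15569 genes, which share the same libraries and are not independent, Spearman's rho of length and interaction was 0.29 and Pearson's *r* with log10 length 0.215.

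For the genes over 300 kb, the median difference from *WT* was -0.173 in *Nipbl+/-*, -0.0784 in *Wapl delta/+* and -0.115 in double heterozygotes, all computed against the same *WT* libraries. The deviation of each library, taken as the median of long genes minus the median of short genes relative to the *WT* mean, lay between -0.0504 and 0.036 in *WT* brains. It was -0.324, -0.134 and -0.173 in the 3 *Nipbl+/-* brains. Among *Wapl delta/+* brains it lay between -0.255 (replicate 1) and -0.0426 (replicate 6), and among double heterozygotes between -0.229 (replicate 6) and -0.0147 (replicate 3). The group means were -0.00101 ± 0.0362 (SD, n = 5) for *WT*, -0.21 ± 0.1 (SD, n = 3) for *Nipbl+/-*, -0.118 ± 0.0817 (SD, n = 7) for *Wapl delta/+* and -0.129 ± 0.0731 (SD, n = 6) for double heterozygotes. The mutant groups overlapped one another, and only double heterozygote 3 and *Wapl delta/+* replicates 2, 3 and 6 came within the *WT* range. The combination of these means that corresponds to the interaction was 0.198. For genes over 300 kb the median interaction was 0.0744 without *Nipbl+/-* replicate 1 and at most 0.148 without another library, and it was 0.164 among the low *mt-Nd3* libraries.

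Values of the cell cycle and astrocyte lists can be set beside those of long genes. *Wapl delta/+* replicates 1 and 5, at -0.255 and -0.189 for long minus short genes, had the highest median deviations of cell cycle genes among *Wapl delta/+* brains, 0.313 and 0.357, and the lowest of astrocyte genes, -0.334 and -0.34. *Nipbl+/-* replicate 1, at -0.324, had 0.318 for cell cycle genes and -0.466 for astrocyte genes, and *Nipbl+/-* replicate 2, at -0.134, had -0.104 and -0.148. Double heterozygote 3, at -0.0147, had -0.0999 and -0.127. The 3 values did not go together in every library. *Wapl delta/+* replicate 7, at -0.119, had -0.0376 and 0.0741, *Wapl delta/+* replicate 2, at -0.0454 and so within the *WT* range, had 0.137 and -0.218, and double heterozygote 2, at -0.0967, had -0.000909 and -0.284. The part of cell composition in the interaction was not tested. When a trend on log10 gene length was removed from each library, 0 genes were called by edgeR and 3658 had an unadjusted *P* below 0.05. The number among genes over 300 kb was 167 in place of 208, and their median interaction was 0.00672. The trend was fitted to these same libraries and genes, so a median near 0 by length class follows from the removal itself.

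**Figure D5:**
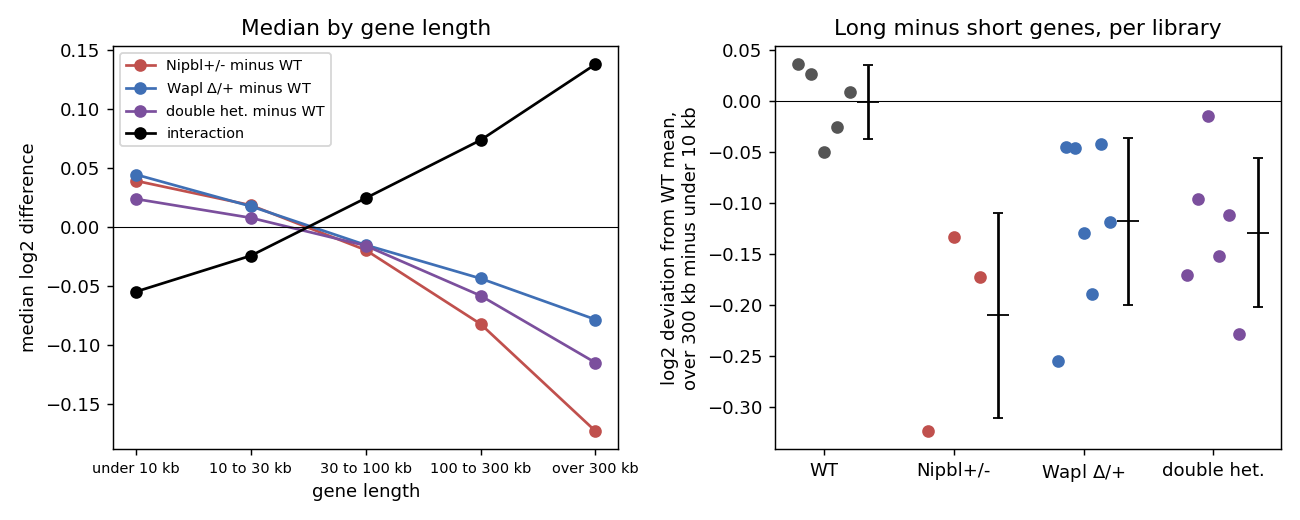
Left, median log2 difference (vertical axis) by gene length class for each mutant group against *WT* and for the interaction. Right, for each of the 21 libraries, the median log2 deviation from the *WT* mean of genes over 300 kb minus that of genes under 10 kb, with black marks for the group mean and SD. The interaction goes from -0.0548 to 0.138 across the classes, and the *Nipbl+/-* group has the lowest mean at right, -0.21.

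A last set comprised 7 genes that had been named for their changes in single comparisons of these same libraries, so their values here are not independent of that choice. *Lcor*, a ligand-dependent nuclear receptor co-repressor (chromosome 19, 41482682 to 41596161), had counts of 144, 182, 123, 127 and 204 in *WT* brains, 72.6, 72.9 and 119 in *Nipbl+/-* brains, between 47.02 and 114 (median 65.8) in *Wapl delta/+* brains and between 49.5 and 228 (median 123) in double heterozygotes. Double heterozygotes spread over nearly the whole range, replicate 5 with 228 being the highest of the 21 libraries, and the interaction was 1.64 (SE 0.405, 95% interval 0.80 to 2.47) with an edgeR adjusted *P* of 0.237. *Dbx1*, a homeobox gene of neural progenitors, had -1.15 (SE 0.38, 95% interval -1.93 to -0.36), or -0.73 without *Nipbl+/-* replicate 1. Its counts were 45.7, 32.8, 32.4, 34.9 and 40.99 in *WT* brains, 151, 59.3 and 87.95 in *Nipbl+/-* brains, between 40.3 and 102 (median 61.7) in *Wapl delta/+* brains and between 47.6 and 105 (median 74.8) in double heterozygotes. *Cd163*, a scavenger receptor of border-associated macrophages, had 0.68 (SE 0.326, 95% interval 0.013 to 1.35). Its counts were 110.3, 96.5, 104, 124 and 115 in *WT* brains, 26.8, 34.99 and 24.4 in *Nipbl+/-* brains, between 64.9 and 133 (median 78.7) in *Wapl delta/+* brains and between 20.02 and 56.5 (median 38.3) in double heterozygotes. All *Nipbl+/-* and double-heterozygote brains lay below all *Wapl delta/+* and *WT* brains for *Cd163*. The intervals of *Dmrt2* (0.52, SE 0.294, 95% interval -0.085 to 1.12), *Gpr37l1* (0.54, SE 0.473, 95% interval -0.43 to 1.52), *Gjb2* (-0.26, SE 0.133, 95% interval -0.54 to 0.011) and *Prnd* (-0.19, SE 0.161, 95% interval -0.52 to 0.14) included 0. Without *Nipbl+/-* replicate 1 the estimates of *Gpr37l1* and *Gjb2* were 0.24 and -0.11, and without *Nipbl+/-* replicate 3 that of *Prnd* was -0.045.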

How the data were processed

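Whole brains of female E17.5 embryos gave 21 RNA-seq libraries, grouped by the genotypes in the labels. Per the labels and the study's methods, the authors selected poly(A) RNA, sequenced 101 bp read pairs, trimmed with cutadapt 2.4, aligned with STAR 2.5.3a to mm10 (GRCm38.p6) and counted reads per gene with featureCounts (Subread 1.6.4). The deposited values are raw counts, one library per embryo. The annotation release, the use of strand and the handling of reads that overlap more than 1 gene are not given in the sources used here.

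Testing covered genes whose normalized counts summed to 10 or more, and was done with edgeR 4.0.16 (R 4.3.3), using TMM scaling, the quasi-likelihood test, all 21 libraries and a model with *Nipbl* status, *Wapl* status and their product. The interaction is the coefficient of the product, and calls required a Benjamini-Hochberg adjusted *P* below 0.10. Unadjusted *P* values below 0.05 are descriptions. Normalized counts were scaled to a common library size. Alternatives were DESeq2 1.42.0, limma 3.58.1 (voom, and a linear scale), other size factors and filters, a term for *mt-Nd3*, allele order in the labels, a replicate block and leaving out each library. The procedure was tested on simulated data, in which planted interactions were larger than most estimates here and no single effects were planted. That test does not cover departures as small as most of those reported. Library deviations used log2 CPM with a pseudocount of 0.5.

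The genes and lists were chosen with earlier results of these data known. The rule named *Nipbl* and *Wapl*, the 12 genes of smallest *P* value in each direction with a mean of at least 1 CPM, the 2 members of smallest *P* value in each list, and genes named earlier for single comparisons. Other list members that are named were chosen after their values were seen. One gene that the rule names is not reported here. Gene positions and lengths come from RefSeq annotation of GRCm38.p6, in which 24332 tested genes were found by symbol or synonym, and length is the span of the gene. Since litters are not given, the *P* values measure the spread between these embryos. One library that the study left out was not analysed here.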

Additional observations from a re-analysis of the deposited data

Results flagged for a closer look

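In 32 of 297 checks of named genes within groups, the highest or the lowest library lay far from the others relative to the range of its group. Chance flags about 1 such check in 20. Each value is a normalized count. *Wapl delta/+* replicate 1 was lowest for *Mbnl1* (599.5), *Gm37676* (239), *Ndst4* (273), *Rab11fip2* (1553) and *Taf1* (1838), and highest for *Rpl29* (6380) and *Gh* (17.2). *Wapl delta/+* replicate 2 was highest for *Kmt2a* (7987), *Abcc9* (851) and *Prox1* (1367). *Wapl delta/+* replicate 4 was highest for *Hoxb9* (9.60).

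Among *WT* brains, replicate 2 was highest for the pituitary genes *Gh* (2110), *Prl* (10.3) and *Pomc* (527) and lowest for *Pcdhga4* (15250) and *Pcdhgc3* (18460), 2 genes that share exons. Replicate 1 was highest for *Pcdh10* (6061) and *Hemgn* (7.17), replicate 3 for *Pax7* (407) and *Nr4a1* (433), replicate 4 for *Hopx* (462) and replicate 5 for *Hoxb9* (12).

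Among double heterozygotes, replicate 6 was highest for *Gh* (819.8), *Prl* (10.5), *Pomc* (315), *Hoxb9* (8.43) and the embryonic globin gene *Hbb-y* (33.7). Replicate 5 was highest for *mt-Tp* (435) and *Rps21* (4486), replicate 4 for *Prnd* (175) and replicate 3 for *Stag1* (2513), whereas replicate 3 was lowest for *Pcdhga4* (13300).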

How the results depend on the processing

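The number of genes called at an adjusted *P* below 0.10 was 0 in edgeR and also 0 with voom, on a linear scale, with other size factors, with either low-count filter, at a threshold of 0.05, with a term for *mt-Nd3*, with *Wapl* deletions written second in the labels, and after removal of the length trend. It was 793 with DESeq2, 2 among the low *mt-Nd3* libraries and 24 with *Wapl* deletions written first. All libraries with the *Wapl* deletion written first had low *mt-Nd3*, and all with it written second had high *mt-Nd3*. The low *mt-Nd3* and written-first subsets therefore differ only in *WT* replicates 4 and 5 and are not separate checks. Each holds only replicates 1 and 2 of *Wapl delta/+*. Leaving out single libraries gave between 0 and 307 calls, 252 without *Wapl delta/+* replicate 2 and 307 without double heterozygote 6. The cause was not tested. The number of genes at an unadjusted *P* below 0.05 ranged from 2740 without *Nipbl+/-* replicate 1 to 4644 with *Wapl* deletions written first. Removal of the length trend, and the medians by length class, were added after seeing the data.

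Replicate numbers of the labels were tried as a block. In the 25 pairs of libraries with the same number, correlations of deviations lay between -0.23 and 0.404 with a median of 0.00777, and 3 of 21 libraries correlated best with one of their own number. Of the 25 pairs, 8 had a correlation over 0.1. Pairs with different numbers were not summarized beside them, so these values do not settle whether the numbers pair some libraries. The replicate block gave 0 calls and 3983 genes at an unadjusted *P* below 0.05.

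Of 3229 values of 98 named genes under the alternatives, 3222 kept the sign. Most of these genes were chosen for small *P* values in the same libraries, and most alternatives reuse nearly all libraries. Kept signs were therefore likely from the outset and are not separate support. The interaction of *Nipbl* was -0.0141 without *WT* replicate 1, -0.0022 without *Nipbl+/-* replicate 1, -0.0219 without *Nipbl+/-* replicate 2 (range 0.0828 to -0.0219 over left-out libraries) and -0.0331 after removal of the length trend. That of *Foxp2* was -0.0024 after the same removal, that of *Hoxb9* -0.0282 without *WT* replicate 5 and 4.10 without *Nipbl+/-* replicate 3, and the interaction of *Rps21* was 0.01085 with *Wapl* deletions written second. Medians of 12 of 39 lists and length classes changed sign under some alternative, those of the cortical layer list under 12, of the oligodendrocyte list under 10 and of the hypothalamic list under 9.

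The standard error, with a median of 0.0911 for genes of at least 1 CPM, limits the precision, and genes with few counts such as *Hoxb9* or *Prl* carry wide intervals. The 9 libraries with high *mt-Nd3* hold no *Nipbl+/-* brain, and the interaction has no estimate among them.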

Other observations

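*Scai*, a suppressor of cancer cell invasion that acts on actin-linked transcription, was 1 of the 2 genes called by edgeR among the low *mt-Nd3* libraries, and was chosen after its values were seen. Over all 21 libraries its interaction was 0.40 (SE 0.124), with an edgeR adjusted *P* of 0.237. Its mean normalized count was 1509 in *WT*, 1276 in *Nipbl+/-*, 1288 in *Wapl delta/+* and 1442 in double-heterozygote brains.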
